A study of Homo sapiens with 12 samples.

Results

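The genes described here are the protein-coding genes of the last stretch of the long arm of human chromosome 5 (5q), from GALNT10 to the end of the arm. They were chosen by position and by a joint rise with FLCN knockdown that had been seen in these same libraries. Of 183 protein-coding genes that GENCODE release 29 places in the stretch (genome build GRCh38), 179 were in the count table and 115 had at least 10 raw counts in 3 or more libraries. SQSTM1, ATP6V0E1, ADAM19, ADAMTS2, COL23A1, SLC34A1 and HAVCR1 were left out by name, and 4 of these 7 had enough counts, so 111 genes remained. All 111 passed the filter on low counts, among 13959 genes tested in the series. For 6 of them (FAXDC2, FGF18, CDHR2, DOK3, ZNF454 and TRIM7), fewer than 3 of the nontarget, the knockdown, the short-term or the long-term libraries reached 10 counts, so their inclusion rested on the groups where they were higher, and counts without these 6, a choice made after seeing the data, are given below. FGF18 reached it in the 3 long-term nontarget libraries, CDHR2 in 3 long-term and 1 short-term knockdown library, and TRIM7 in 6 knockdown libraries and 1 nontarget library. Because the knockdown comparisons chose these genes, their values there are given as a description without tests.

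RNA was sequenced from HK2, an established human proximal tubule cell line, with and without knockdown of folliculin (FLCN), the tumor suppressor lost in Birt-Hogg-Dubé syndrome. The 12 libraries formed 4 groups of 3 biological replicates. Short-term nontarget cells carried a nontargeting shRNA and were harvested at fewer than 30 passages, and short-term FLCN knockdown cells carried an shRNA against FLCN and were harvested in the same passage range. The long-term groups, nontarget and FLCN knockdown, carried the same kinds of shRNA and were harvested after 120 passages. All 4 groups were grown in DMEM with fetal bovine serum, and the labels name no further allele or agent. More than 1 clone was used in the study, and which clone gave which library was not stated, so that an effect of the shRNA and one of the clone cannot be told apart. Nothing in the labels says how separate the cultures of a group were, so the p-values below measure the spread between these libraries.

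The genes of a chromosome end lie side by side without sharing a pathway. Those of distal 5q include the nucleolar protein NPM1, the ribosomal scaffold RACK1, the endoplasmic reticulum chaperone CANX, the anaphase inhibitor PTTG1 (securin), a cluster of zinc finger genes and several TRIM ubiquitin ligases. Levels of neighboring genes are usually set gene by gene through their own promoters, while the number of copies of a stretch is common to all genes in it. DNA was not analysed here, so the number of copies of the stretch in each group was not measured.

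Libraries held 5825779 to 8991051 counts. FLCN itself fell by 60.2% in short-term knockdown cells (edgeR, adjusted p = 1.12e-04) and by 38.5% in long-term knockdown cells (edgeR, adjusted p = 0.00611). Of 14 proximal tubule markers, LRP2, SLC22A6 and HNF4A had 0 counts in every library and 6 were tested (SLC5A2, GGT1, MME, PAX8, VIL1 and CDH2), so the labelled cell type rested on a part of its markers. Of 6 markers of other cells, PTPRC (leukocytes), EMCN (endothelium) and UMOD (thick ascending limb) had 0 counts over the 12 libraries, AQP2 (collecting duct) had 1 and PECAM1 (endothelium) 19. PDGFRB, of fibroblasts and pericytes, had 299 counts and mean levels of 3.99, 2.19, 7.41 and 0.658 CPM (counts scaled to a common library size) in short-term nontarget, short-term knockdown, long-term nontarget and long-term knockdown libraries, and its part in the results was not tested. Libraries of replicate 3 stood apart from replicates 1 and 2 in the short-term knockdown and both long-term groups, with a chi-square per degree of freedom of 6.32 to 11.9 against 3.33 to 4.93 between replicates 1 and 2.

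The 111 genes together took 0.971% to 0.980% of all counts in the short-term nontarget libraries and 1.39% to 1.42% in the short-term knockdown libraries. Long-term, the share was 0.985% to 1.03% in nontarget and 1.47% to 1.52% in knockdown libraries. All 6 knockdown libraries thus lay above all 6 nontarget libraries, and the libraries within a group lay close together. On a log2 scale, the median gene of the 111 was 0.53 to 0.54 above the short-term nontarget mean in the short-term knockdown libraries and 0.54 to 0.60 above it in the long-term knockdown libraries. In the long-term nontarget libraries the same median was 0.02 to 0.03.

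**Figure D1:**
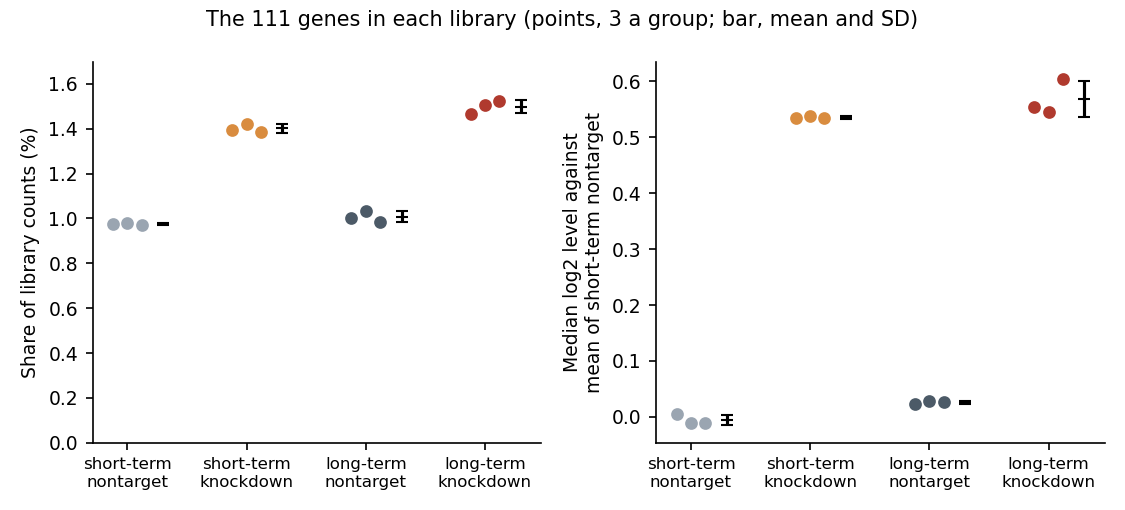
Left, share of each library's counts in the 111 genes (%); right, median log2 level of the 111 genes relative to the mean of the short-term nontarget libraries. Points are libraries, 3 a group, bars give mean and SD; the knockdown libraries sit at 1.39% to 1.52% and the nontarget libraries at 0.971% to 1.03%.

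Levels are given below in CPM, counts scaled to a common library size with edgeR's TMM factors, and differences as log2 fold changes with their standard errors (SE). With knockdown, the log2 fold change of the 111 genes had a median of 0.54 short-term (1.45-fold) and 0.56 long-term (1.47-fold), where the median over all 13959 genes was 0.00 in both. The quartiles of the 111 lay at 0.41 and 0.75 short-term and at 0.32 and 0.74 long-term. A log2 fold change above 0 was found for 106 of the 111 short-term and 99 long-term. In all, 94 were above 0 at both times, 12 short-term only and 5 (INSYN2B, ZNF354A, ZNF879, RNF130 and ZFP62) long-term only, so that no gene escaped the rise in the sense of a log2 fold change at or below 0 at both times. In bulk RNA, a higher level in every cell and more cells with the transcript cannot be told apart.

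A gene was said to follow the common rise when all 3 knockdown libraries lay above all 3 nontarget libraries at both times. This held for 58 of the 111 genes (52.3%), against 5.17% of all genes tested, and the rule for choosing the genes used this same contrast. All 3 knockdown libraries lay above short-term for 87 genes, against 15.2% of all genes, and long-term for 71, against 19% of all genes. Without the 6 genes bound to the filter, the counts were 57, 83 and 69 of 105. Libraries were separated in this way short-term only for 23 genes, against 7.47% of all genes, and long-term only for 13, against 12.6%. Another 6 (CYFIP2, NIPAL4, FGF18, SH3PXD2B, NEURL1B and DOK3) lay above nontarget short-term and below it long-term in all 3 libraries, a pattern found in 2.53% of all genes. FGF18 and DOK3 are bound to the filter, and 4 of 105 genes had this pattern without the 6 genes so bound. Libraries overlapped at both times for the remaining 11, against 45.4% of all genes, which were HMMR, INSYN2B, RANBP17, NSD1, PDLIM7, CLK4, ZNF354B, ZNF454, ZNF879, ZNF354C and MGAT1. Expression level went along with these classes. Of the 84 genes that averaged 10 CPM or more, 52 followed and 4 overlapped at both times, and of 27 genes under 10 CPM, 6 followed and 7 overlapped at both times.

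**Figure D2:**
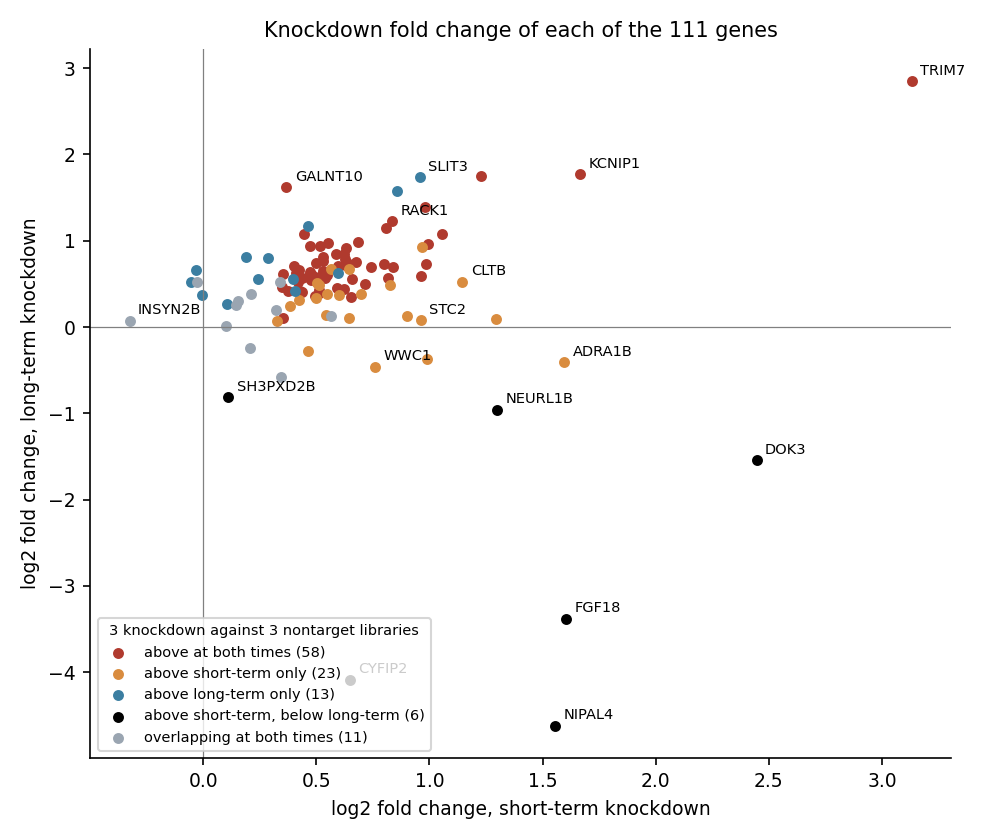
Log2 fold change with knockdown in short-term (x) and long-term (y) cells for each of the 111 genes, colored by whether the 3 knockdown libraries lay above or below the 3 nontarget libraries. Most points form a cloud around 0.54 and 0.56, and NIPAL4, CYFIP2, FGF18 and DOK3 lie far below it on the long-term axis.

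Across the 111 genes, short-term and long-term log2 fold changes had a Pearson correlation of -0.07 and a Spearman correlation of 0.20, and the Spearman value was 0.28 over the 84 genes of at least 10 CPM. The points share their libraries within each comparison, and genes are not independent replicates. The median SE of a single gene was 0.15 in either comparison.

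Along chromosome 5, the 115 tested protein-coding genes from the start of the stretch onward, the 4 genes left out by name among them, had medians of 0.48 to 0.60 short-term and 0.48 to 0.66 long-term in 4 bins of 10 Mb (megabases). The 23 genes in the 4 Mb before the start, from HMGXB3 to MFAP3, had medians of 0.01 short-term and -0.12 long-term. Over the whole 5q before the start, the 11 bins had medians of -0.22 to 0.40 short-term and -0.18 to 0.32 long-term. The highest of these lay at 90 to 110 Mb, with medians of 0.40 and 0.39 short-term and 0.09 and 0.32 long-term. In 10 Mb bins, none outside the stretch reached its lowest median. In bins of 20 genes this did not hold, since the bin from ELL2 to PJA2, in the middle of 5q, had medians of 0.55 short-term and 0.39 long-term, above the lowest inside the stretch, 0.43 and 0.32 from PDLIM7 to CANX. On the short arm, the bin from PLEKHG4B to ADAMTS16 lay above the first of these short-term, at 0.47, and the bin from IL7R to FBXO4 above the second long-term, at 0.37. The end of 5q was therefore not the only stretch of the chromosome above 0.

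**Figure D3:**
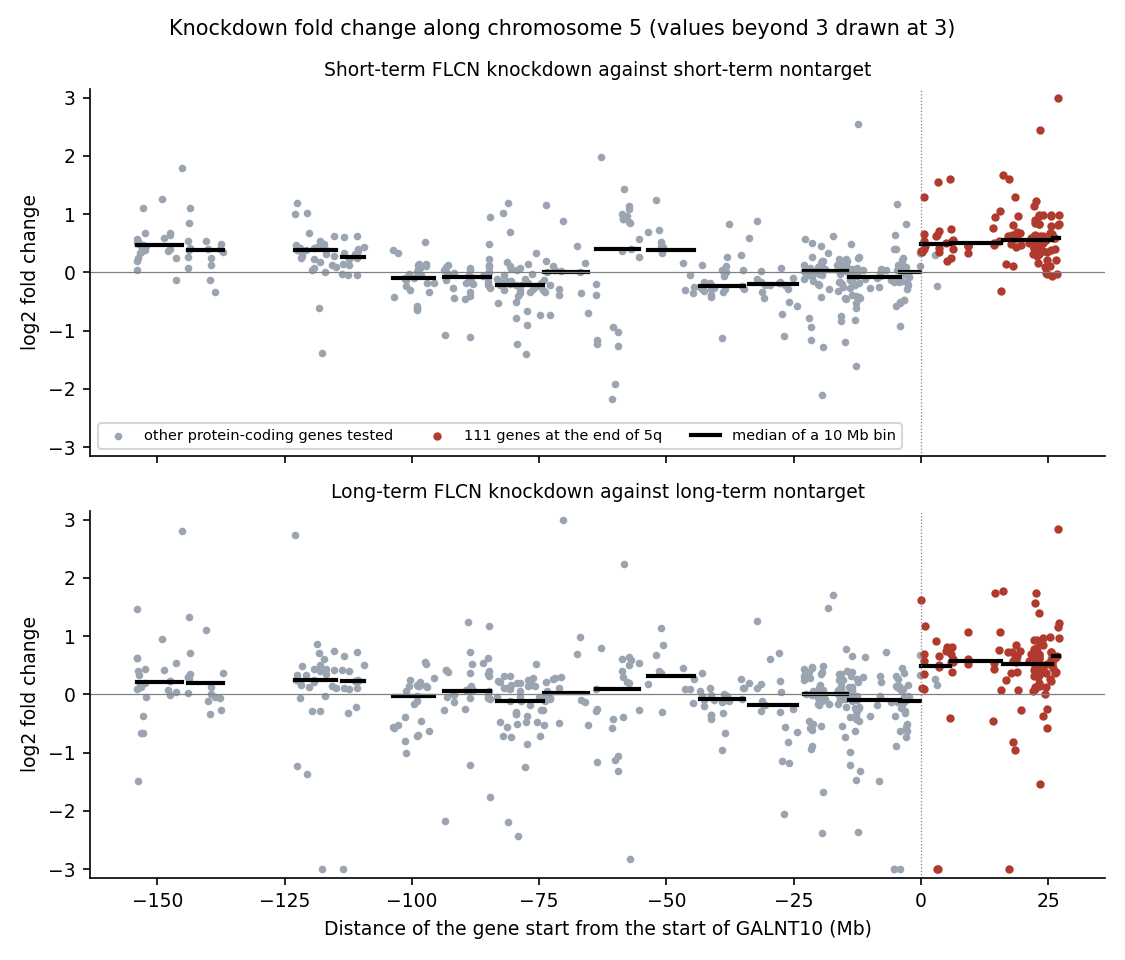
Log2 fold change with knockdown (y, values beyond 3 drawn at 3) of tested protein-coding genes by distance of their start from that of GALNT10 in Mb (x), short-term above and long-term below. Red points are the 111 genes, gray points other genes and black lines the medians of 10 Mb bins; the lines step from 0.01 to 0.48 short-term and from -0.12 to 0.48 long-term at the start.

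On the near side of the start, SPARC, ATOX1 and G3BP1 had log2 fold changes of -0.22, -0.02 and -0.07 short-term and -0.02, 0.16 and -0.05 long-term. FAM114A2 and MFAP3, the closest pair, had 0.12 and 0.34 short-term and 0.68 and 0.34 long-term. On the far side, GALNT10, SAP30L, LARP1, FAXDC2 and CNOT8 had 0.37, 0.35, 0.65, 1.29 and 0.54 short-term, and 1.62, 0.11, 0.35, 0.09 and 0.57 long-term. FAM114A2 and MFAP3, outside the stretch, were thus above 0 at both times, FAM114A2 short-term by less than its SE of 0.18. In the annotation, MFAP3 overlaps GALNT10. Inside the stretch, SAP30L was near 0 long-term at 0.11 ± 0.13, although its libraries followed the common rise. FAXDC2 had 0.09 ± 0.46 long-term at a mean of 1.63 CPM and is bound to the filter, so its value is uncertain.

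Genes of RNA handling and ribosomes held the highest levels per length. Of 20 such genes, 15 followed, all 20 were above 0 short-term and 19 long-term, and their medians were 0.48 and 0.56. Per kilobase of exon, NPM1 (chr5:171387116-171411137) was the highest of all 111 genes at 535 RPKM (CPM divided by the exon length in kilobases), ahead of RACK1 (chr5:181236909-181248096) at 280.0, HNRNPAB at 239.5 and CANX at 179, where the median of the 111 was 7.66. NPM1, a nucleolar chaperone of ribosome assembly, measured 1562, 1613 and 1518 CPM in short-term nontarget and 2693, 2632 and 1928 CPM in short-term knockdown libraries. Long-term, it measured 1738, 1748 and 1288 CPM in nontarget and 2829.8, 2824 and 2208 CPM in knockdown libraries. Groups did not overlap at either time, although replicate 3 was the lowest NPM1 library in every group, and the log2 fold changes were 0.63 ± 0.14 (SE) and 0.72 ± 0.14. The annotation holds 45 pseudogenes named after NPM1, so reads of NPM1 can be split among copies and its level is uncertain. RACK1, a scaffold of the small ribosomal subunit, measured 1186, 1122 and 1038 CPM against 2004, 1942 and 2019 CPM short-term. It measured 1039, 1112 and 1086 CPM in long-term nontarget and 2469, 2327 and 2782 CPM in long-term knockdown libraries. The long-term knockdown libraries of RACK1 were the highest of all 12, with fold changes of 1.78 short-term and 2.34 long-term, and small nucleolar RNA genes lie within it.

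HNRNPAB, an RNA-binding protein, measured 416, 418 and 432 CPM against 583, 552 and 665 short-term and 438, 451 and 452 against 565, 535 and 657 long-term, again with no overlap. LARP1, which binds mRNAs of the translation machinery, had log2 fold changes of 0.65 ± 0.11 and 0.35 ± 0.11, and CNOT8, a deadenylase subunit, 0.54 ± 0.12 and 0.57 ± 0.12. GEMIN5, which binds small nuclear RNAs for the SMN complex, had 0.40 ± 0.11 and 0.70 ± 0.11. MRPL22, SLU7, CPEB4, CLK4 and HNRNPH1 did not follow. HNRNPH1, a splicing regulator, measured 301, 259.5 and 276 CPM in short-term nontarget and 286, 316 and 299.6 CPM in short-term knockdown libraries, which overlapped. Long-term, its levels of 305, 293 and 262 CPM in nontarget and 333, 371 and 329 CPM in knockdown libraries did not overlap, and its log2 fold changes of 0.11 and 0.26 were among the lowest of the abundant genes.

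Of 16 genes of the secretory pathway and vesicles, all were above 0 at both times, and 8 followed, with medians of 0.50 short-term and 0.44 long-term. CANX (calnexin), a lectin chaperone of the endoplasmic reticulum, measured 938, 899 and 1001 CPM against 1238, 1189 and 1276 short-term and 1156, 1001 and 980.1 against 1351, 1215 and 1133 long-term. Its libraries were separated short-term and overlapped long-term, through long-term nontarget replicate 1 and knockdown replicate 3. TMED9, a membrane protein of early secretory vesicles, followed, with log2 fold changes of 0.44 ± 0.11 short-term and 0.40 ± 0.10 long-term. ERGIC1, a protein that cycles between the endoplasmic reticulum and the Golgi, followed with 0.59 ± 0.09 and 0.84 ± 0.09. MGAT4B, an enzyme that branches N-glycans, was among the 8 highest mean rises of genes of at least 10 CPM, with 0.99 ± 0.13 and 0.73 ± 0.13. MGAT4B overlaps SQSTM1, which was left out by name and had log2 fold changes of 0.98 and 0.64, and without the strand setting of the counting their reads cannot be told apart where they overlap. CLTB, the clathrin light chain B, measured 44.4, 46.6 and 38.5 CPM against 95.8, 85.7 and 106 CPM short-term and 31.1, 32.5 and 42.2 against 41.7, 47.7 and 63.8 long-term. The short-term libraries of CLTB were well apart, at 2.21-fold, and the long-term libraries overlapped. MGAT1, the first enzyme of complex N-glycans, overlapped at both times, with 0.21 ± 0.18 and 0.38 ± 0.18.

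Of 7 cell division genes, 6 followed, with medians of 0.53 and 0.61. PTTG1 (securin, chr5:160421822-160428744), which holds back sister chromatid separation, measured 79.7, 85.5 and 84.1 CPM in short-term nontarget and 129.8, 132 and 102 CPM in short-term knockdown libraries. Long-term, the PTTG1 values were 89.7, 105 and 82.5 CPM in nontarget and 151, 145 and 125 CPM in knockdown libraries, with no overlap. CCNG1 (cyclin G1, a p53 target) had log2 fold changes of 0.46 ± 0.11 and 0.57 ± 0.11, and SPDL1, which brings dynein to kinetochores, 0.53 ± 0.13 and 0.77 ± 0.13. HMMR, a spindle-associated hyaluronan receptor, was the gene of this group whose libraries overlapped at both times, at 62.7, 67.1 and 78.1 CPM against 83.6, 103 and 75.7 CPM short-term and 78.9, 69.8 and 58.1 against 100.4, 120.3 and 75.8 long-term. Replicate 3 was its lowest library in both knockdown groups.

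All 6 genes of metabolism and mitochondria followed, with medians of 0.51 short-term and 0.64 long-term. PRELID1, a lipid transfer protein of the mitochondrial intermembrane space, measured 99.4, 113 and 93.3 CPM against 189.8, 168 and 189 CPM short-term and 95, 125 and 126 against 176, 169 and 218 long-term. PANK3, a pantothenate kinase of coenzyme A synthesis, had log2 fold changes of 0.51 ± 0.13 and 0.43 ± 0.13, and SFXN1, a mitochondrial serine transporter, 0.51 ± 0.10 and 0.58 ± 0.10. MAT2B, a regulatory subunit of methionine adenosyltransferase, measured 59, 59.4 and 54.7 CPM against 83.8, 80.7 and 71.1 CPM short-term and 58.2, 47.5 and 46.2 against 109, 112 and 100.2 long-term. All 3 long-term knockdown libraries of MAT2B lay above its 9 other libraries.

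Of 7 ubiquitin ligase, ubiquitin-like and TRIM genes, 5 followed, with medians of 0.82 and 0.84. TRIM7, an E3 ligase gene at the very end of the arm (chr5:181193924-181205293), measured 0, 0.456 and 0.786 CPM in short-term nontarget and 3.29, 2.92 and 4.78 CPM in short-term knockdown libraries. Long-term, it measured 0.804, 1.24 and 1.42 CPM in nontarget and 6.93, 6.90 and 11.7 CPM in knockdown libraries. TRIM7 was low in every library, with log2 fold changes of 3.13 ± 0.54 and 2.84 ± 0.39, and these high values are bound to the filter, since 1 of its 6 nontarget libraries reached 10 counts. TRIM41 had 0.81 ± 0.18 and 1.15 ± 0.17, and UBTD2 0.82 ± 0.16 and 0.56 ± 0.15. RNF130, another E3 ligase gene, measured 38.3, 39.9 and 37.1 CPM against 38, 37.4 and 35.6 CPM short-term, which overlapped with a log2 fold change of -0.05. Its long-term knockdown libraries, at 46.8, 56.5 and 57 CPM, lay above the long-term nontarget libraries at 33.9, 39.2 and 38.3 CPM. RNF44 showed the opposite order, with 0.90 ± 0.19 short-term and 0.12 ± 0.19 long-term.

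Of 15 chromatin and transcription genes, 4 followed, with medians of 0.33 short-term and 0.56 long-term. MXD3, a MAX-binding repressor, and MAML1, a Notch coactivator, followed, with 0.53 ± 0.11 and 0.80 ± 0.14 short-term and 0.65 ± 0.11 and 0.73 ± 0.14 long-term. NSD1, a histone H3 lysine methyltransferase, measured 25.3, 31.1 and 38.2 CPM against 40.6, 31.9 and 32.4 CPM short-term and 33.5, 37 and 30.5 against 41.5, 50.3 and 31.9 long-term. Its libraries overlapped at both times. SIMC1 had log2 fold changes of 0.33 ± 0.13 and 0.06 ± 0.13, and ZNF354A -0.00 ± 0.16 and 0.37 ± 0.16. Within 0.458 Mb, from CLK4 to ZNF354C, lay 6 of the 111 genes (CLK4, ZNF354A, ZNF354B, ZNF454, ZNF879 and ZNF354C). The libraries of 5 of them overlapped at both times, against 45.4% of all genes. This stretch was chosen after its values were seen. Its medians were 0.15 short-term and 0.07 long-term, and 5 of the 6 were under 10 CPM, with means between 0.984 and 12 CPM, so low counts went along with the overlap.

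Of 13 signaling genes, which were kinases, phosphatases and receptors together with FBXW11, FGF18, DOK3, NEURL1B and RGS14, 4 followed (FBXW11, STK10, UNC5A and MAPK9), and medians were 0.60 and 0.48. FBXW11, the F-box protein beta-TrCP2, had log2 fold changes of 0.49 ± 0.10 and 0.36 ± 0.10, and MAPK9, the kinase JNK2, 0.59 ± 0.10 and 0.45 ± 0.10. DUSP1, a MAP kinase phosphatase, measured 85.7, 76.8 and 118 CPM against 114, 93.6 and 218 CPM short-term and 67.5, 70.6 and 88.4 against 101, 102 and 149 long-term. Replicate 3 was the highest DUSP1 library in every group, and the groups overlapped short-term only. FGFR4, a receptor for fibroblast growth factors, had 0.50 ± 0.21 and 0.51 ± 0.20, with overlap long-term.

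Among 9 genes of cytoskeleton, adhesion and guidance, 1 followed, DOCK2, an exchange factor for Rac, with 1.05 ± 0.12 and 1.08 ± 0.13. All 9 were above 0 short-term, with a median of 0.65, and 5 were above 0 long-term, with a median of 0.19. SLIT3, a secreted guidance ligand, measured 8.06, 7.75 and 12.1 CPM against 10.2, 18 and 26.7 CPM short-term, with overlap, and 6.70, 6.35 and 12.2 against 28, 26 and 30.9 CPM long-term, without. DBN1 (drebrin), an actin-binding protein, had 0.50 ± 0.13 and 0.34 ± 0.13. PDLIM7, a LIM domain protein of actin fibers, measured 261, 229.6 and 188 CPM against 264, 249 and 336 CPM short-term and 183, 186 and 215 against 187, 194 and 288 long-term, and overlapped at both times. Its highest library was replicate 3 in both knockdown groups.

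The remaining 18 genes had no role list of their own, and 9 of them followed. KIAA1191 and TBC1D9B, a Rab GTPase-activating protein, followed with 0.63 ± 0.09 and 0.66 ± 0.13 short-term and 0.79 ± 0.09 and 0.56 ± 0.13 long-term. PRR7 was among the 8 highest mean rises, with 0.97 ± 0.44 and 0.92 ± 0.40, and its SEs were wide, with 10.7, 12 and 30.9 CPM in the long-term knockdown libraries. INSYN2B, which lies within DOCK2, measured 9.57, 9.26 and 7.54 CPM against 8.10, 5.99 and 6.90 CPM short-term and 5.76, 6.19 and 5.56 against 5.08, 7.04 and 6.44 CPM long-term. Its log2 fold changes of -0.33 ± 0.19 and 0.07 ± 0.20 hold the lowest short-term value of the 111, next to the 1.05 ± 0.12 of DOCK2. RANBP17, of the importin family, also overlapped at both times, with 0.14 ± 0.21 and 0.26 ± 0.21.

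**Figure D4:**
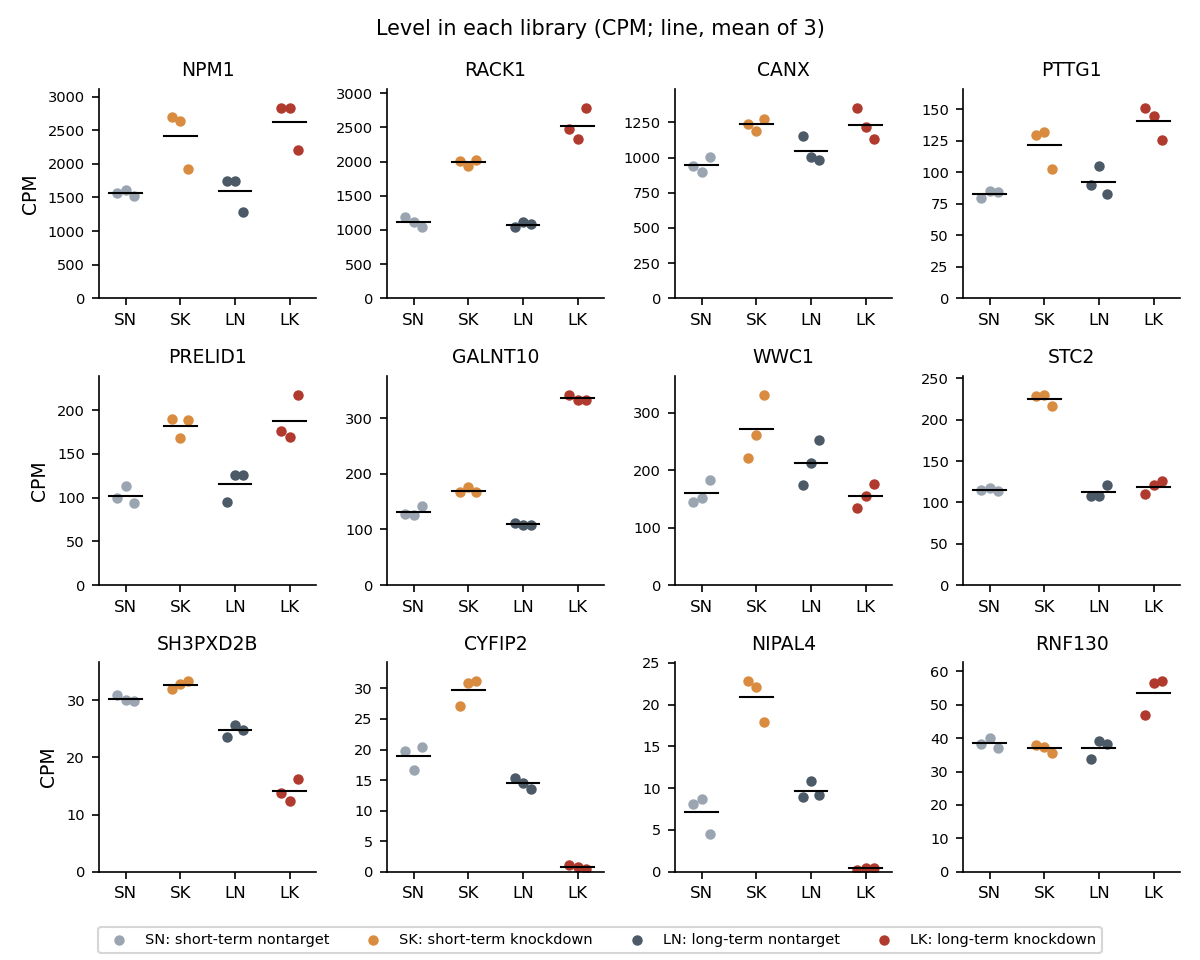
CPM of 12 of the genes in each of the 12 libraries (points; lines are means of 3), with both nontarget and both knockdown groups on the x axis. NPM1, RACK1, PTTG1 and PRELID1 are higher in knockdown at both times, WWC1 and STC2 short-term only, RNF130 long-term only, and CYFIP2 and NIPAL4 drop to 1.16 CPM or less in long-term knockdown libraries.

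Whether the knockdown effect differed between the 2 culture times was tested as an interaction, adjusted over all 13959 genes with edgeR. The test shares its libraries with the knockdown comparisons that chose the genes. Of the 111 genes, 16 (5 in the higher and 11 in the lower direction long-term) were called at an adjusted p below 0.05, where 4.98% of all genes were called in the higher and 8.43% in the lower direction, 13.4% in all. The share among the 111 was thus near that of all genes, and 14 of 105 genes were called without the 6 genes bound to the filter.

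NIPAL4, a gene for a magnesium transporter-like membrane protein, measured 8.06, 8.66 and 4.56 CPM in short-term nontarget and 22.8, 22.1 and 17.9 CPM in short-term knockdown libraries. Long-term, it measured 8.98, 10.8 and 9.19 CPM in nontarget and 0.231, 0.440 and 0.509 CPM in knockdown libraries. NIPAL4 was therefore higher with knockdown in short-term cells and near the limit of counting in long-term knockdown cells, and the difference of its 2 log2 fold changes was -6.17 ± 0.42 (edgeR, adjusted p = 2.23e-08). CYFIP2, a subunit of the WAVE complex that drives actin branching, measured 19.7, 16.7 and 20.4 CPM against 27.2, 30.9 and 31.1 CPM short-term. It measured 15.4, 14.6 and 13.6 CPM in long-term nontarget and 1.16, 0.734 and 0.509 CPM in long-term knockdown libraries. The difference was -4.73 ± 0.28 for CYFIP2 (edgeR, adjusted p = 6.27e-09). Both genes are neighbors and both overlap ADAM19, which was left out by name and had log2 fold changes of -0.24 short-term and 0.15 long-term.

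WWC1 (KIBRA), a scaffold of the Hippo pathway, measured 144, 153 and 184 CPM against 222, 262 and 332 CPM short-term and 175, 212 and 252 against 134, 156 and 176 CPM long-term. Short-term knockdown libraries lay above nontarget and long-term ones overlapped with it by the lowest nontarget and highest knockdown library, and the difference was -1.22 ± 0.22 (edgeR, adjusted p = 0.00116). STC2 (stanniocalcin 2), a secreted glycoprotein, measured 115, 118 and 114 CPM against 229, 230.3 and 216 CPM short-term and 107, 108 and 121 against 109.8, 122 and 126 CPM long-term. STC2 was thus elevated in short-term knockdown libraries alone, with a difference of -0.88 ± 0.13 (edgeR, adjusted p = 1.39e-04). SH3PXD2B (TKS4), a podosome scaffold, measured 30.9, 30.1 and 29.9 CPM against 32, 32.9 and 33.3 CPM short-term and 23.6, 25.7 and 24.8 against 13.8, 12.3 and 16.3 CPM long-term. Its short-term groups were barely apart and its long-term groups well apart in the other direction, with a difference of -0.92 ± 0.18 (edgeR, adjusted p = 0.00153).

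FGF18, DOK3, NEURL1B and ADRA1B were lowly expressed, and the same test called them. FGF18, a growth factor, measured 0, 0.304 and 0.314 CPM and 0.506, 0.877 and 0.531 CPM in the short-term groups, and 2.55, 2.32 and 2.98 CPM and 0, 0.293 and 0.509 CPM in long-term nontarget and knockdown libraries. As FGF18 was among the genes only through its long-term nontarget libraries, with 19, 15 and 23 counts, its high level there was fixed by the filter. DOK3, an adaptor of tyrosine kinases, had a difference of -3.99 ± 0.81, likewise bound to the filter, NEURL1B, a ligase for Notch ligands, -2.25 ± 0.57, and ADRA1B, the alpha-1B adrenergic receptor, -2.0 ± 0.43. CPEB4, a regulator of poly(A) tails, and TSPAN17, a tetraspanin, had smaller differences of -0.74 ± 0.24 and -0.54 ± 0.15.

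In the higher direction, GALNT10, an enzyme that starts O-glycans, measured 128, 125 and 141 CPM against 167, 175 and 167 CPM short-term and 111, 108 and 108 against 342, 332 and 332 CPM long-term. All 12 libraries fell into clear groups, with fold changes of 1.29 and 3.08 and a difference of 1.25 ± 0.12 (edgeR, adjusted p = 1.85e-06). MRPL22, of the large subunit of the mitochondrial ribosome, measured 33.2, 29.6 and 34.7 CPM against 49.5, 49.9 and 34.5 CPM short-term and 30.8, 30.5 and 26.3 against 65.6, 67.4 and 64.6 CPM long-term. Its short-term knockdown replicate 3 lay within the nontarget range, and the difference was 0.71 ± 0.19 (edgeR, adjusted p = 0.0182). MAT2B, RNF130 and NHP2, a component of H/ACA small nucleolar particles, had differences of 0.63 ± 0.16, 0.58 ± 0.16 and 0.42 ± 0.13.

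Of the 16 calls, 11, with FGF18 and DOK3 among them, held when any 1 library was left out. MRPL22 was lost in 1 of 12 such fits (adjusted p = 0.0510 without short-term nontarget replicate 3), RNF130 in 2 and TSPAN17 in 8, with largest adjusted p of 0.0678 and 0.0655 without long-term knockdown replicate 2. NHP2 was lost in 9 and CPEB4 in 10, with 0.0857 and 0.126 without short-term nontarget replicate 2.

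**Figure D5:**
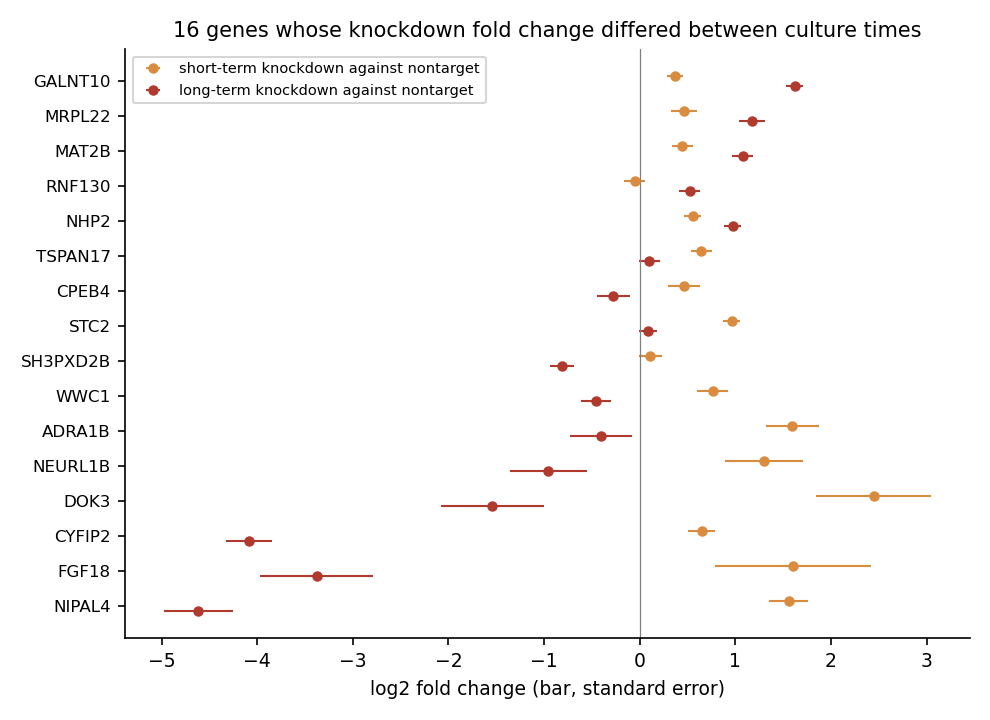
Log2 fold change with knockdown (x, bars are SE) for the 16 genes whose fold change differed between culture times, short-term in orange and long-term in red. The 11 genes of the lower direction are to the right of 0 short-term, and NIPAL4 and CYFIP2 reach -4.62 and -4.09 long-term.

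Time in culture was compared within nontarget and within knockdown cells, with edgeR over all genes and the same libraries as above. In nontarget cells, 3 of the 111 genes were called higher (KCNIP1, FGF18 and DOK3) and 0 lower, where 3.17% of all genes were called higher and 4.38% lower, and 16 (14.4%) had an unadjusted p below 0.05, against 19.4% of all genes. The median log2 difference of the 111 was 0.03. FGF18 in all 3 and DOK3 in 2 of 3 long-term nontarget libraries had to be high to pass the filter, so their calls support nothing, and KCNIP1 was the 1 call without them. The log2 difference of FGF18 was 3.61 ± 0.62, over a base of 0, 2 and 2 counts in the short-term nontarget libraries. KCNIP1, which modulates voltage-gated potassium channels, measured 3.14, 1.97 and 2.04 CPM short-term and 5.09, 6.66 and 4.27 CPM long-term, a rise of 1.13 ± 0.29 (edgeR, adjusted p = 0.0213) lost in 3 of 6 such fits, with an adjusted p of 0.104 without short-term nontarget replicate 2. DOK3 measured 0.410, 0.152 and 0.314 CPM short-term and 1.21, 1.86 and 1.55 CPM long-term, and its call was lost in 5 of 6 fits.

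In knockdown cells, 14 of the 111 genes rose and 16 fell with long culture, where 11.5% of all genes were called higher and 15.2% lower. These shares were again near those of all genes, and the median of the 111 was 0.08. Among the 111, the 2 knockdown groups did not overlap for 22 genes in the higher and 16 in the lower direction, where 18.3% and 19.8% of all genes were separated in this way. Besides GALNT10, MRPL22 and RNF130, the 6 largest rises held KCNIP1 (1.24 ± 0.21), TRIM7 (1.21 ± 0.33) and UIMC1 (0.48 ± 0.16), of the BRCA1-A complex. KCNIP1 measured 7.47, 9.94 and 5.49 CPM in short-term and 20.5, 17.6 and 16.1 CPM in long-term knockdown libraries, and was thus one gene that rose with time in both kinds of cells. RACK1 rose by 0.35 ± 0.09 (edgeR, adjusted p = 0.0103) and ERGIC1 by 0.39 ± 0.09 (edgeR, adjusted p = 0.00428). The largest falls were in NIPAL4 (-5.74 ± 0.33), CYFIP2 (-5.12 ± 0.22), ADRA1B (-1.86 ± 0.29), DOK3 (-1.69 ± 0.53), SH3PXD2B (-1.22 ± 0.13) and NEURL1B (-1.19 ± 0.39). CLTB fell by 0.91 and STC2 by 0.92 on the log2 scale, and their differences between the 2 nontarget groups were -0.29 ± 0.16 and -0.04 ± 0.09. Without the 6 genes bound to the filter, 28 of 105 genes were called, and the groups did not overlap for 20 in the higher and 15 in the lower direction. Of the 30 calls, 18 held without any 1 library. The 12 others were TSPAN17, UIMC1, CNOT6, RNF145, N4BP3, RNF44, DOK3, LARP1, MRNIP, NUDCD2, ARL10 and NEURL1B, with a largest adjusted p of 0.215 for DOK3 without short-term knockdown replicate 1.

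TFEB and TFE3, transcription factors held in the cytoplasm through FLCN, bind E-boxes, so promoters were searched for the E-box CACGTG and for the longer TCACGTGA. Promoter windows from RefSeq (GRCh38.p14, from 250 bases before to 50 after a gene's start) matched 106 of the 111 genes. CACGTG was in 10 of these windows (9.43%), against 7.43% of 27305 windows of all genes. Those windows were taken with no filter on gene type or expression, while the 111 are expressed protein-coding genes, so the shares are of unlike sets. The window of PRELID1 shares its E-box with that of RAB24, which lies on the other strand and did not follow, so the 10 windows held 9 E-boxes, and windows of all genes were counted with the same sharing. CACGTG was in 1 of the windows of the 55 matched genes that followed (1.82%), PRELID1. TCACGTGA, which contains CACGTG, was in the DUSP1 window alone, 0.943% against 1.04% of all windows. Both motifs read the same on both strands. The stretches around the E-box of PRELID1, which followed, and of DUSP1, which holds the longer motif, are shown 5′ to 3′ along each gene's strand, with the E-box in capitals.
PRELID1, chr5:177303732-177303761, plus strand: gggccgcaaggtCACGTGgcgcgggcgccg
DUSP1, chr5:172771286-172771315, minus strand: tcaccgccccgtCACGTGatcaccattcaa
The E-box of PRELID1 started at position -55 and that of DUSP1 at position -108, counted from the first base of the gene. A match is a description of letters and not of binding.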

How the data were processed

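Messenger RNA libraries of HK2 cells (Illumina TruSeq v2) were aligned by the authors with STAR to GRCh38 and counted per gene with featureCounts, and the deposited count table and per-library count files differed in 0 values. The deposited normalized columns, a score on the authors' DESeq2 scale, were read but not used for tests. The strand setting of the counting and the annotation release were not given in the sources used here. Genes were placed with GENCODE release 29. Identifier versions of 6 of the 111 genes differ from that release, and 71 overlap another gene, so coordinates are given for some genes only.

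The 111 genes and the role lists were chosen with earlier results of these data known. Samples were grouped by their labels. Counts were fitted with edgeR 4.0.16 (R 4.3.3; TMM factors of 0.964 to 1.03, filterByExpr, quasi-likelihood, prior count of 0.125) over all 12 libraries and 13959 genes, which held 99.8% of counts, with Benjamini-Hochberg adjustment and a threshold of 0.05. The 2 knockdown comparisons were described, and time in culture and the interaction were tested. The biological coefficient of variation was 12.0%. Depth allowed calls of 53% (nontarget culture), 51% (knockdown culture) and 20% (interaction) of 100 genes changed by 1.5-fold, and of 100%, 100% and 99% of those changed by 3-fold, when tested on simulated data. The changed genes were drawn from those averaging at least 10 CPM. Recovery for the 27 of the 111 genes under 10 CPM was not simulated.

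Named genes were the 8 highest and 8 lowest by mean of both knockdown log2 fold changes among those of at least 10 CPM, any at or below 0 at both times, the 3 highest in CPM of each role list, the 6 largest rises and falls among genes called in each tested comparison, and the 5 tested protein-coding genes on each side of the start. Other genes named for a pattern were chosen after their values were seen. Replicate numbers were shared by the labels of all groups. Deviations from the group mean correlated by 0.25 to 0.709 between same-numbered long-term nontarget and knockdown libraries and by 0.499 to 0.696 between both knockdown groups, but by -0.0315 to 0.221 between the short-term groups and by -0.111 to 0.218 between the nontarget groups, so the numbers paired libraries in the first 2 cases. The alternatives were RLE factors, DESeq2 1.42.0, other filters, genes without overlap, the replicate block, other bins and each library left out, and, chosen after seeing the data, replicate 3 left out of every group. Figures were drawn with matplotlib 3.10.9.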

Additional observations from a re-analysis of the deposited data

Results flagged for a closer look

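The knockdown effect of 16 of the 111 genes differed between culture times by the interaction test of edgeR. The log2 fold change of long-term knockdown minus that of short-term knockdown was -6.17 for NIPAL4, -4.98 for FGF18, -4.73 for CYFIP2, -3.99 for DOK3, -2.25 for NEURL1B and -2.0 for ADRA1B. It was -1.22 for WWC1, -0.92 for SH3PXD2B, -0.88 for STC2, -0.74 for CPEB4 and -0.54 for TSPAN17. In the other direction it was 1.25 for GALNT10, 0.71 for MRPL22, 0.63 for MAT2B, 0.58 for RNF130 and 0.42 for NHP2. Across all genes, 13.4% were called in the same test. FGF18 and DOK3 passed the filter on counts through the groups where they were high, so their differences support nothing.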

How the results depend on the processing

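No result changed direction under any alternative. The short-term median log2 fold change of 0.54 was 0.51 with a mean of at least 10 CPM, 0.51 with a mean of at least 50 counts and 0.50 for the 40 genes that overlap no other gene, and 0.53 to 0.56 without single libraries. The long-term median of 0.56 was 0.51 without overlapping genes, 0.52 without replicate 3 of every group and 0.51 to 0.56 without single libraries. Of the 40 genes that overlap no other, 33 lay above nontarget in all 3 libraries short-term, against 15.2% of all genes tested, and 24 long-term, against 19%. These counts were 87 to 95 and 73 to 78 of 111 without single libraries, where a rule on every library is easier to meet by construction, so the range says nothing of stability. RLE factors moved the median of all genes by less than 0.01 on the log2 scale.

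The 3 calls of nontarget culture became 0 of 84 with a mean of at least 10 CPM, against 7.11% of all genes in that fit. KCNIP1, FGF18 and DOK3 are expressed below this level. The calls were 1 of 91 with a mean of at least 50 counts and 1 of 40 without overlapping genes, against 7.55% of all genes. They were 7 with the replicate block and 8 without replicate 3 of every group (7.21%, against 11.3% of all genes). Without single libraries, 1 to 4 remained (0.901% to 3.6%, against 4.1% to 6.39% of all genes). The value was 1 without short-term nontarget replicate 2 or 3 or long-term nontarget replicate 2. Of the 40 genes without overlap, 12 (30%) were called in knockdown culture, against 26.6% of all genes, and 8 (20%) in the interaction, against 13.4%. Without single libraries, the 30 calls of knockdown culture became 19 to 32 (17.1% to 28.8%, against 19.9% to 27.2% of all genes), with 19 without long-term knockdown replicate 1, and the 16 of the interaction 13 to 17 (11.7% to 15.3%, against 10.3% to 16.1%). With the replicate block, which pairs libraries by number, the counts were 7 (6.31%), 36 (32.4%) and 23 (20.7%), against 12.8%, 34.4% and 20.6% of all genes in the same fit, and every call made without the block was kept; DESeq2 kept 2, 27 and 15 of them. For the largest and smallest bin medians of the stretch, bins of 20 genes gave 0.43 to 0.80 short-term and 0.32 to 0.64 long-term, in place of 0.48 to 0.60 and 0.48 to 0.66. Bins of 20 genes and genes without overlap hold other genes or fewer of them; other causes were not tested. Mean counts per library ran from 6.58 for FGF18 to 14406 for NPM1, with a median of 281. At 1.5-fold, 20% of simulated interactions were called among genes of at least 10 CPM. A gene without a call may thus still differ between culture times by this much.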

Other observations

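The short arm of chromosome 5 showed another pattern than the end of 5q with knockdown and with long culture of nontarget cells. In the 4 bins of the short arm, with 84 tested protein-coding genes, median log2 differences were 0.26 to 0.47 with short-term and 0.20 to 0.25 with long-term knockdown. The same bins had medians of 0.42 to 0.54 with long against short culture of nontarget cells, where the bins at the end of 5q had -0.01 to 0.12. With long against short culture of knockdown cells, the medians were 0.33 to 0.43 on the short arm. At the end of 5q they were 0.01 to 0.41, so these ranges overlapped. These comparisons share libraries, and short-term nontarget libraries are the control in 2 of them. Among genes of the short arm, CCT5, a subunit of the cytosolic chaperonin, had log2 differences of 0.55 with short-term knockdown, 0.30 with long-term knockdown and 0.51 with nontarget culture. No such rise in nontarget culture was called for NPM1, RACK1 or PTTG1, at 0.02, -0.05 and 0.15. CCT5 was chosen after its values were seen.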
